A study of Homo sapiens with 6 samples.

Results

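The 35 genes described here are enzymes and transporters of glycolysis together with genes known to be induced by low oxygen. They were taken from a list of gene names, with no threshold on measured values. That list was chosen with earlier results of these data known. Of the 35 members, 33 had at least 1 probe named here and 32 had a probe that passed the detection filter, out of 11133 genes that did so on the array. SLC16A3, which exports lactate, and CA9, a carbonic anhydrase, had no probe named here. EGLN3, an oxygen-sensing hydroxylase, had 1 probe that was not above background on any of the 6 arrays. All 32 remaining members were above background on each of the 3 mir-22 mimic arrays, and ADM alone of their brightest probes missed it on 1 control mimic array.

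The cells were ES-2, an established human line grown from an ovarian clear cell carcinoma, cultured in serum-containing medium. One group of 3 arrays came from cells transfected with a mir-22 mimic at 65 nM, and the other group of 3 from cells transfected with a negative control mimic based on worm microRNAs, with no dose stated for it. RNA was taken 48 hours after transfection in both, and no low-oxygen treatment is named for either. The arrays are labelled biological replicates, but no source used here says that they came from separate cultures, and the p-values then describe only how these arrays varied, which may be technical.

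Glycolysis splits glucose into pyruvate in a chain of enzyme steps, and lactate dehydrogenase turns pyruvate into lactate. When oxygen is short, the prolyl hydroxylases of the EGLN family stop marking the transcription factor subunit HIF1A for destruction, and HIF then raises transcription of glucose transporters, glycolytic enzymes, angiogenic factors and mitophagy genes. Ovarian clear cell carcinoma is known for high expression of HIF-dependent genes. HIF1A mRNA has been reported elsewhere as a target of miR-22 in colon cancer cells, which is background and not a result of these arrays.

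A microRNA finds its targets mostly through its seed, bases 2 to 8, so both mature products of the MIR22 hairpin are shown to identify what was raised. They are from RefSeq, build GRCh38.p14, minus strand, at chr17:1713914-1713935 for the 3p arm and chr17:1713952-1713973 for the 5p arm, with the seed in capitals. The labels do not say which arm the mimic copies.
hsa-miR-22-3p: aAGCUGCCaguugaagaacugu
hsa-miR-22-5p: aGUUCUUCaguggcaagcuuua

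Levels are given as background-corrected, quantile-normalised log2 probe intensities, and differences as log2 fold changes, mir-22 mimic minus control mimic, with limma's moderated standard error. A gene is represented by its brightest probe among those above background on at least 3 arrays. Levels of different genes are not compared, since probes differ in brightness. A gene passed the test when its limma p, adjusted over all 18732 kept probes, was under 0.05.

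Between 17465 and 19244 probes were detected per array. Control mimic replicate 3 stood apart: over the kept probes its log2 values correlated at 0.98 with the other controls, which correlated at 0.997 with each other, and 685 of its probes lay more than 1 log2 unit below their mean while 5 lay as far above it. Results that rest on this array are given with and without it. Of the markers of the labelled cell type, KRT8, KRT18, MUC1, SOD2 and TFPI2 were detected on all 6 arrays, FXYD2 on 5 and ANXA4 on 3. NAPSA, GPX3, PAX8, EPCAM, CDH1, KRT19 and CLDN4 were detected on none, whereas the mesenchymal markers VIM, CDH2, FN1, ZEB1 and SPARC were detected on all 6. Of markers of other cell types, PTPRC, CD3E, ITGAM, VWF, KDR, COL1A2 and DES were detected on no array, and CD14, PECAM1, CDH5 and ACTA2 on all 6. ACTA2 fell, with a log2 fold change of -0.77 (adjusted p = 0.008, limma), a call that was lost without any 1 of the mir-22 mimic arrays (log2 -0.82 to -0.68 over all arrays left out in turn). In bulk RNA, a change in the share of cells and a change in RNA per cell cannot be told apart.

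Among the 32 measured members, 3 rose with the mir-22 mimic and none fell. They were SLC2A3 and SLC2A1, which encode glucose transporters, and the gene of the vasodilator peptide adrenomedullin, ADM. In the same fit 3.47% of the 11133 genes passed as higher, 4.14% as lower and 7.61% in either direction. The log2 fold changes of the 32 members ran from -0.23 to 0.94 with a median of 0.12, where the median over all kept genes was -0.02, and 21 were positive and 11 negative. The mimic arrays lay entirely above the control arrays for 12 members and entirely below for 2, where this held for 14.8% and 19.5% of all kept genes.

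**Figure D1:**
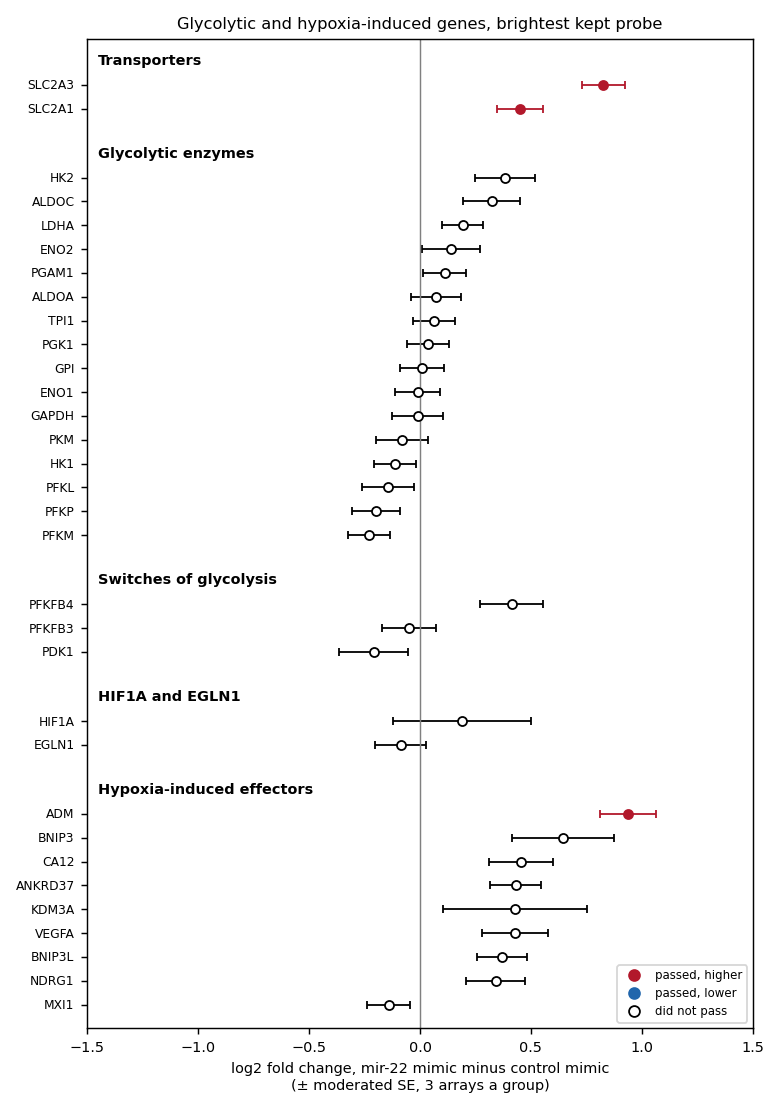
Log2 fold change (x axis, mir-22 mimic minus control mimic) of each of the 32 measured members, grouped by role down the page; points are the brightest probe, bars the moderated SE with 3 arrays a group, and filled points passed the test. SLC2A3 (0.83), SLC2A1 (0.45) and ADM (0.94) are the filled points, the 16 glycolytic enzymes lie between -0.23 and 0.38, and 8 of 9 hypoxia-induced effectors lie right of 0.

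Both measured glucose transporter genes rose, where 3.47% of all genes passed as higher. SLC2A3 encodes a high-affinity facilitative glucose carrier, and its log2 intensities were 11.04, 11.06 and 11.18 on the mir-22 mimic arrays, against 10.19, 10.32 and 10.29 on the control mimic arrays. Every mimic array lay well above every control array, and control mimic replicate 3 lay between the other controls. The log2 fold change was 0.83 ± 0.10, or 1.77-fold (adjusted p = 0.00471, limma). It passed whichever array was left out, with a log2 fold change between 0.78 and 0.86 and an adjusted p between 0.00113 and 0.0462. SLC2A14 is a near-identical copy of SLC2A3, so the gene behind this signal is not certain.

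SLC2A1, the carrier of basal glucose uptake in most cells, had log2 intensities of 10.90, 10.75 and 10.91 on the mir-22 mimic arrays, against 10.30, 10.42 and 10.49 on the control mimic arrays. The groups did not overlap, and the gap between the lowest mimic array and the highest control array was smaller than for SLC2A3. Its log2 fold change was 0.45 ± 0.10, or 1.37-fold (adjusted p = 0.0409, limma). The call was lost without mir-22 mimic replicate 1 (log2 0.43, adjusted p = 0.172), 2 (0.50, 0.123) or 3 (0.42, 0.147) and without control mimic replicate 1 (0.40, 0.105) or 2 (0.46, 0.105). Without control mimic replicate 3 it was 0.49 (adjusted p = 0.0104).

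None of the 16 glycolytic enzymes passed, where 7.61% of all genes passed in either direction. Their log2 fold changes had a median of 0.02. HK2, the inducible hexokinase that traps glucose in the cell, had the highest at 0.38 ± 0.13 (adjusted p = 0.135, limma). Without control mimic replicate 3 HK2 was at 0.28 (adjusted p = 0.131, limma). ALDOC was then the highest, at 0.45, and passed (adjusted p = 0.0102, limma). With all arrays, the constitutive HK1 stood at -0.11. The isomerase GPI was at 0.01. The 3 phosphofructokinase genes, which encode the committed step, all had negative values, with PFKM at -0.23 ± 0.09 (adjusted p = 0.188), PFKP at -0.20 and PFKL at -0.14. With the arrays scaled to a common median all 3 were closer to 0, at -0.09, -0.02 and -0.001. The mimic arrays of PFKM lay below all its control arrays, and the arrays of PFKP and PFKL overlapped between groups.

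In the lower chain, the aldolase gene ALDOC was at 0.32 ± 0.13 (adjusted p = 0.174) and its relative ALDOA at 0.07. ALDOC had log2 intensities of 9.03, 9.10 and 9.11 on the mir-22 mimic arrays, against 8.59, 8.67 and 9.01 on the control mimic arrays, of which replicate 3 came close to the mimic arrays. The triose-phosphate isomerase TPI1 was at 0.06 and the enolases ENO1 and ENO2 at -0.01 and 0.14. The mutase PGAM1 was at 0.11, and its near-identical copy PGAM4 makes that signal uncertain. PKM, the pyruvate kinase, was at -0.08.

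LDHA, PGK1 and GAPDH did not pass. LDHA, which makes lactate, had log2 intensities of 13.90, 13.82 and 13.95 on the mir-22 mimic arrays, against 13.72, 13.66 and 13.72 on the control mimic arrays. All mimic arrays lay above all controls, but the log2 fold change of 0.19 ± 0.09 did not pass (adjusted p = 0.26, limma). PGK1, the kinase of the first ATP-yielding step, overlapped between groups, at 11.59, 11.73 and 11.65 on the mir-22 mimic arrays and 11.56, 11.69 and 11.61 on the control mimic arrays. GAPDH, often used as a reference gene, stood at 14.14, 14.13 and 14.08 on the mir-22 mimic arrays and at 13.98, 14.08 and 14.33 on the control mimic arrays. Its log2 fold change was -0.01 ± 0.11, and with the arrays scaled to a common median it was 0.15, so its direction depends on the scaling, as do those of ENO1 (0.16), HK1 (0.06) and PKM (0.06), which turn positive there.

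**Figure D2:**
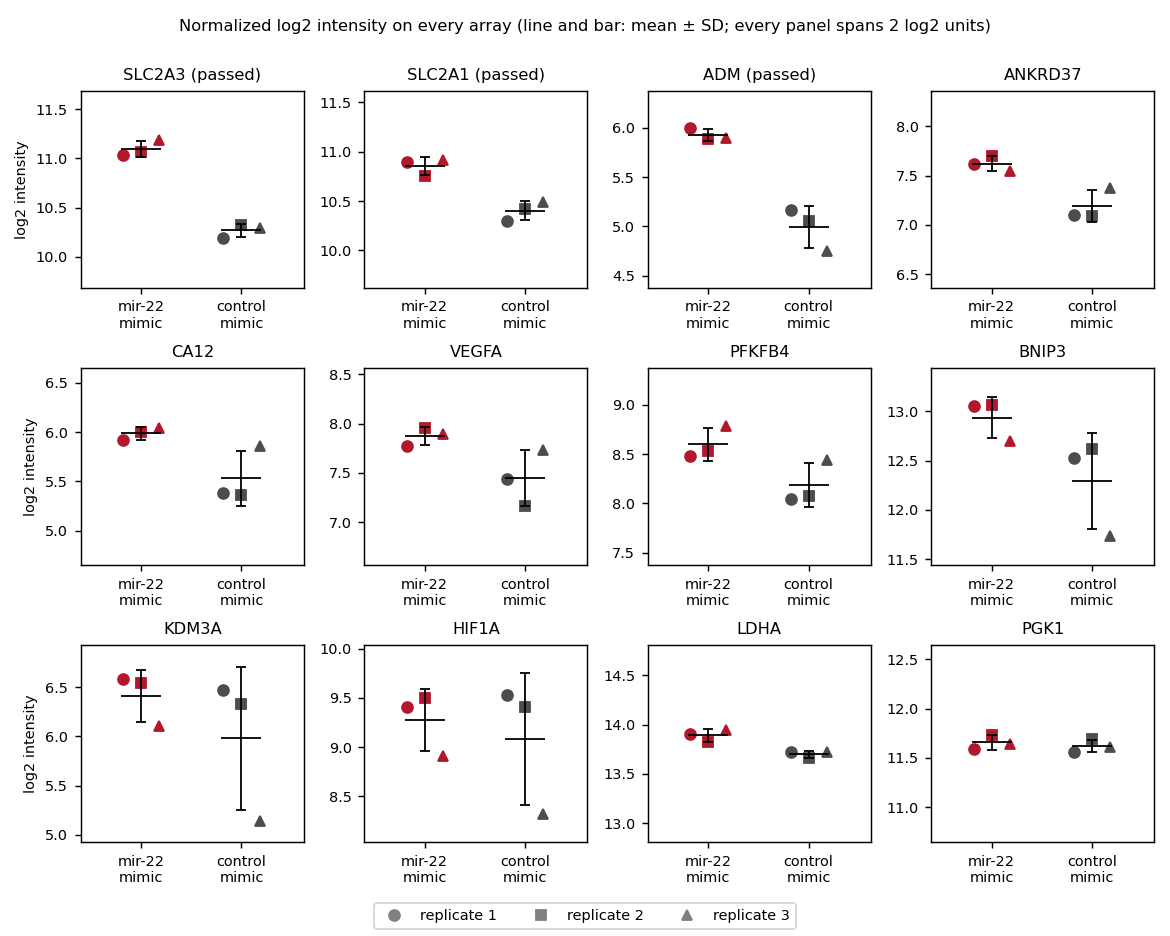
Normalised log2 intensity (y axis) of 12 members on every array, mir-22 mimic left and control mimic right in each panel; symbols mark replicates 1, 2 and 3, bars the mean and SD, and every panel spans 2 log2 units. SLC2A3, SLC2A1 and ADM separate the groups, with a control SD of 0.07, 0.10 and 0.21, CA12, VEGFA, PFKFB4 and ANKRD37 have control mimic replicate 3 nearest the mimic arrays, and HIF1A, KDM3A and BNIP3 have it lowest.

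Of the 3 genes that set the pace or the exit of glycolysis, none passed, where 7.61% of all genes passed in either direction. PFKFB4 makes the activator of phosphofructokinase, and its log2 intensities were 8.48, 8.53 and 8.79 on the mir-22 mimic arrays, against 8.04, 8.07 and 8.44 on the control mimic arrays. The groups did not overlap, with replicate 3 the highest of each group, and the log2 fold change was 0.41 ± 0.14 (adjusted p = 0.128, limma). It passed with the replicate number as a block (adjusted p = 0.0444) and without control mimic replicate 3 (log2 0.54, adjusted p = 0.0127), and with median scaling (0.55, 0.0315). PFKFB3, which makes the same activator, was at -0.05, or 0.08 with median scaling. PDK1, a pyruvate dehydrogenase kinase, overlapped between groups. It stood at 5.08, 5.22 and 5.40 on the mir-22 mimic arrays and 5.16, 5.46 and 5.72 on the control mimic arrays. Its log2 fold change was -0.21 ± 0.16 (adjusted p = 0.464, limma).

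HIF1A, the oxygen-labile subunit of HIF, had log2 intensities of 9.40, 9.50 and 8.91 on the mir-22 mimic arrays, against 9.53, 9.41 and 8.32 on the control mimic arrays. Both replicates numbered 3 were the lowest of their group, and control mimic replicate 3 differed from the mean of the other controls by -1.15. The log2 fold change of 0.19 ± 0.31 did not pass (adjusted p = 0.758, limma), and without control mimic replicate 3 it turned to -0.19 (adjusted p = 0.47). The other HIF1A probes stood at 0.47 ± 0.40 and 0.45 ± 0.32, with control mimic replicate 3 at -1.67 and -1.30 from the mean of the other controls. Set against control mimic replicates 1 and 2 alone, the mimic means of the 3 probes stood at -0.20, -0.09 and 0.02. EGLN1, the main oxygen-sensing prolyl hydroxylase, overlapped between groups, at 7.14, 6.87 and 7.17 on the mir-22 mimic arrays and 7.14, 7.06 and 7.23 on the control mimic arrays, and was at -0.09, or 0.04 with median scaling.

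The 9 measured hypoxia-induced effectors had a median log2 fold change of 0.43, where that of all kept genes was -0.02. ADM rose and none fell, where 3.47% of all genes passed as higher and 4.14% as lower. ADM had log2 intensities of 6.00, 5.89 and 5.90 on the mir-22 mimic arrays, against 5.17, 5.05 and 4.75 on the control mimic arrays, with replicate 3 of the controls not above background. The groups were far apart, and the log2 fold change was 0.94 ± 0.12, or 1.91-fold (adjusted p = 0.00763, limma). The call was lost without mir-22 mimic replicate 1 (log2 0.88, adjusted p = 0.0598) or 2 (0.94, 0.057), and without control mimic replicate 3 the value was 0.84 (adjusted p = 0.000976). The probe is dim, so its size depends on the background step: it was 0.59 without background correction, and passed there, and with detection on all 6 arrays required it was not tested.

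ANKRD37, CA12 and VEGFA were higher on every mimic array but did not pass. ANKRD37, a small ankyrin repeat gene known as a HIF target, had log2 intensities of 7.62, 7.70 and 7.55 on the mir-22 mimic arrays, against 7.10, 7.09 and 7.38 on the control mimic arrays. CA12, a membrane carbonic anhydrase that handles acid, stood at 5.92, 6.00 and 6.05 on the mir-22 mimic arrays, against 5.38, 5.36 and 5.85 on the control mimic arrays. VEGFA, the main angiogenic factor, stood at 7.77, 7.95 and 7.89 on the mir-22 mimic arrays, against 7.44, 7.17 and 7.73 on the control mimic arrays. In all 3 genes control mimic replicate 3 was the highest control, and it reached up towards the mimic arrays.

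Their log2 fold changes were alike: 0.43 ± 0.11 for ANKRD37 (adjusted p = 0.0622, limma), 0.46 ± 0.14 for CA12 (0.106) and 0.43 ± 0.15 for VEGFA (0.133). NDRG1, a stress-induced gene of the same pattern, was at 0.34 ± 0.13 (adjusted p = 0.166), with control mimic replicate 3 within the range of the mimic arrays. Without control mimic replicate 3 all 4 passed, at 0.53 (adjusted p = 0.00582), 0.63 (0.00268), 0.57 (0.0103) and 0.46 (0.0165) in that order. ANKRD37 also passed with no background correction (adjusted p = 0.0493), in the deposited values (0.0482) and with probes averaged (0.044).

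BNIP3 and KDM3A had that array as their lowest instead. BNIP3, a mitophagy receptor, had log2 intensities of 13.05, 13.07 and 12.70 on the mir-22 mimic arrays, against 12.53, 12.62 and 11.74 on the control mimic arrays, so both replicates numbered 3 were low. Its log2 fold change was 0.64 ± 0.23 (adjusted p = 0.14, limma), passed with the replicate number as a block (adjusted p = 0.032) and was 0.36 without control mimic replicate 3 (adjusted p = 0.0838). BNIP3L, its relative, was at 0.37 ± 0.11 (adjusted p = 0.0973) and higher on every mimic array. KDM3A, a HIF-induced demethylase, overlapped between groups, at 6.58, 6.54 and 6.11 on the mir-22 mimic arrays and 6.47, 6.33 and 5.15 on the control mimic arrays, and its log2 fold change of 0.43 ± 0.32 became 0.01 without control mimic replicate 3. MXI1, a repressor of the MYC network, was at -0.14 and lower on every mimic array without passing (adjusted p = 0.426).

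Control mimic replicate 3 moved members in both directions. It was the highest of all 6 arrays for 11 of the 32 members and the lowest for 7. Of all 11133 genes it was the highest for 4764 and the lowest for 2622. On it HIF1A and KDM3A lay more than 1 log2 unit below the other controls, as did 304 of all 11133 genes. Without it 9 members rose and none fell, namely ADM, ALDOC, ANKRD37, CA12, NDRG1, PFKFB4, SLC2A1, SLC2A3 and VEGFA, where 8.61% of all genes passed as higher, 7.61% as lower and 16.2% in either direction. The role medians without it were 0.66 for the transporters, 0.06 for the enzymes and 0.46 for the effectors. With the replicate number as a block, 5 members rose, adding BNIP3 and PFKFB4, and none fell, where 4.69% of all genes passed as higher and 5.2% as lower. Leaving out any other array lowered the members' count, to 1 without mir-22 mimic replicate 1 or 2 (0.458% and 0.474% of all genes higher), and to 2 without mir-22 mimic replicate 3 (0.573%) or control mimic replicate 1 (1.71%) or 2 (1.31%). The count was 4 with no background correction and in the deposited values (3.96% of all genes higher in each), with median scaling (2.89%) and with probes averaged (4.5%). Weighting the arrays by their fit gave 12 members that rose and 1, PFKM, that fell, where 12.7% of all genes passed as higher and 13.6% as lower. What set that array apart was not tested.

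**Figure D3:**
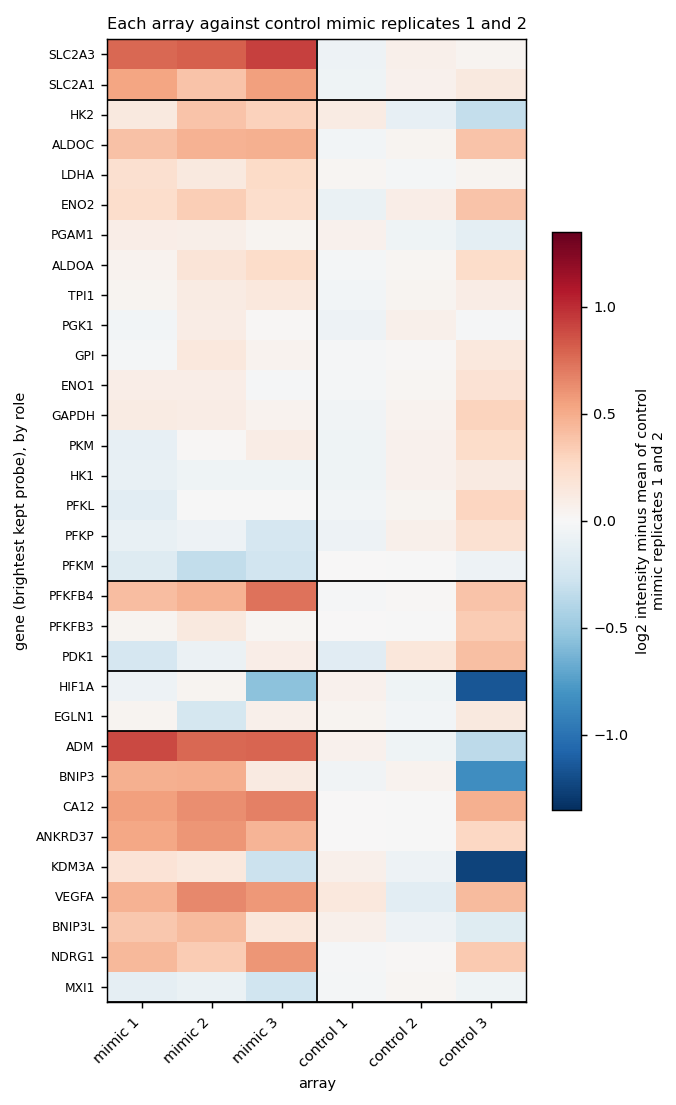
Log2 intensity of each measured member (rows, by role) on each array (columns) minus the mean of control mimic replicates 1 and 2, shown as colour. The transporters and most effectors are above 0 on the mir-22 mimic arrays, the enzymes lie on both sides of 0, with a mimic mean of 0.45 for ALDOC, 0.28 for HK2 and -0.25 for PFKM, and control mimic replicate 3 is low for HIF1A (-1.15), KDM3A (-1.25) and BNIP3 (-0.84) and raised for CA12 (0.48) and VEGFA (0.43).

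Centred on its own mean, each member contributes equally to a median per array. That median was 0.04, 0.08 and 0.06 on the mir-22 mimic arrays, and -0.09, -0.06 and 0.07 on the control mimic arrays. The mimic arrays lay above control mimic replicates 1 and 2, and control mimic replicate 3 lay within their range.

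More than 1 probe was kept for 13 members, and the 32 members had 50 kept probes in all, of which the 3 brightest probes named above were the only ones that passed, where 6.46% of all kept probes passed. Probes of a gene had the same sign except for GAPDH, whose 3 probes stood at -0.01, -0.002 and 0.13. The other probe of HK2 stood at 0.13 ± 0.38 and that of BNIP3L at 0.48 ± 0.38, both with control mimic replicate 3 far below the other controls (-1.25 and -1.31). VEGFA stood at 0.39 ± 0.15 on its other probe, where the groups overlapped: control mimic replicate 3 (5.91) lay above mir-22 mimic replicate 1 (5.89). The error over beads of a single array was 2.08% to 8.85% of a member probe's intensity, highest for that HK2 probe, and 3.38% for SLC2A3, 3.43% for SLC2A1 and 4.31% for ADM.

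**Figure D4:**
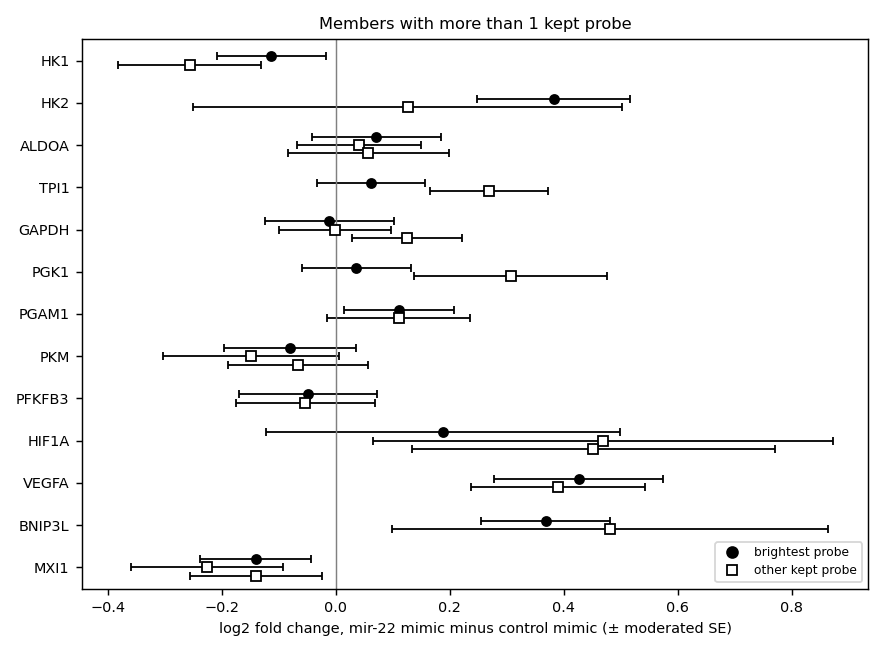
Log2 fold change (x axis, mir-22 mimic minus control mimic) with moderated SE for each kept probe of the 13 members that had more than 1, with the brightest probe filled. Probes of VEGFA, PKM and MXI1 lie close together, whereas those of HK2 (0.38 and 0.13), PGK1 (0.04 and 0.31) and HIF1A (0.19 to 0.47) differ within wide errors.

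The core of the HIF response element, the short sequence HIF binds, was looked for in the members' promoters. RefSeq windows of 250 bases before to 50 after the gene start (GRCh38.p14) were found for 31 members, 61 windows in all, and searched on both strands for ACGTG and for GCGTG, with CACGTG counted on each strand. ACGTG was in 37.7% of the members' windows, against 21.4% of all 35116 windows, and GCGTG in 42.6%, against 36.5%. ADM and SLC2A1, which rose, each had no ACGTG and 1 GCGTG. LDHA, which did not pass, had 5 ACGTG and 1 GCGTG in its first window, and PGK1, also not passing, had 3 and 1. ANKRD37 had 3 and 0 and BNIP3 had 2 and 4, with positive log2 fold changes that did not pass. Whether the number of matches goes with the fold change was not tested. Shown are the windows of both genes that rose and have an entry, of ANKRD37 and BNIP3, which were higher on every mimic array, and of LDHA and PGK1, with every match in capitals. They lie at chr1:42958819-42959118 (minus strand, SLC2A1), chr11:10304823-10305122 (plus, ADM), chr4:185396591-185396890 (plus, ANKRD37), chr10:131981874-131982173 (minus, BNIP3), chr11:18394313-18394612 (plus, LDHA) and chrX:78103998-78104297 (plus, PGK1). A match describes letters only and is not evidence of binding.
SLC2A1: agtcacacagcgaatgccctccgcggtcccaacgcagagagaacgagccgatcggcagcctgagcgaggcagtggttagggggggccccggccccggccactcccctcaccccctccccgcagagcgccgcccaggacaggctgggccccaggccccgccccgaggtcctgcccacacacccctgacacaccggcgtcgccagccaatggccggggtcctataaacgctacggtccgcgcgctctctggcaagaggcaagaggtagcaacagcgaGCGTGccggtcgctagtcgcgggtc
ADM: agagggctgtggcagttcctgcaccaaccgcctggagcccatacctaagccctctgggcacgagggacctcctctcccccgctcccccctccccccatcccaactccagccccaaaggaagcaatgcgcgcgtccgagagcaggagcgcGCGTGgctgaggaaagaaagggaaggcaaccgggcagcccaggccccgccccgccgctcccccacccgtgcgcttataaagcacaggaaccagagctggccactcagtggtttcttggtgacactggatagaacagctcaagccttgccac
ANKRD37: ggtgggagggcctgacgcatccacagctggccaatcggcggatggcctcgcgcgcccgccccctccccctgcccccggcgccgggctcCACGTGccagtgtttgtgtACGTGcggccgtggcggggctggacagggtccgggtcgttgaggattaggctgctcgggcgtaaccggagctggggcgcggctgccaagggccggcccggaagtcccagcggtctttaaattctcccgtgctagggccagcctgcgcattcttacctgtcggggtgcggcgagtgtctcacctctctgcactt
BNIP3: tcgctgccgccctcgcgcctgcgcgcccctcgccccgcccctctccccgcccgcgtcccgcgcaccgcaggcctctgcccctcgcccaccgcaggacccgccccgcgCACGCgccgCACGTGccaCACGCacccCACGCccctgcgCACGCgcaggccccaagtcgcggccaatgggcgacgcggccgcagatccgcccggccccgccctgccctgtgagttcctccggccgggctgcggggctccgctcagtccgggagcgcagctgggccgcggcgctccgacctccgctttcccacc
LDHA: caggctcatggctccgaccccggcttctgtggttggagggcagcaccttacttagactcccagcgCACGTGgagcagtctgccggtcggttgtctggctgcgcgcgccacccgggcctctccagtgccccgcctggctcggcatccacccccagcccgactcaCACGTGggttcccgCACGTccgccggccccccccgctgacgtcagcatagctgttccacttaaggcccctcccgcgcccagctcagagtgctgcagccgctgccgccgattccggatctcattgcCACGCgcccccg
PGK1: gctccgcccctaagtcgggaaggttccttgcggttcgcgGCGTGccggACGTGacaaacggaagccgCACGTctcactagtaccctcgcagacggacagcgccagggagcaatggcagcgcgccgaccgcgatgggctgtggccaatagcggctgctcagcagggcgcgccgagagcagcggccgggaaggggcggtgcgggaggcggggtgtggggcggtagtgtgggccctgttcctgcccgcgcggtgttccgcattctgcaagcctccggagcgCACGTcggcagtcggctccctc

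Other genes of the HIF system changed in both directions, 2 higher and 3 lower among 14 measured, with a median log2 fold change of -0.005. Of all genes 3.47% passed as higher and 4.14% as lower. The list, like those below, was put together with earlier results of these data known. HIF1AN, the asparaginyl hydroxylase that blocks HIF from its coactivators, had log2 intensities of 7.28, 7.28 and 7.30 on the mir-22 mimic arrays, against 7.80, 7.90 and 8.17 on the control mimic arrays. Its log2 fold change was -0.67 ± 0.12 (adjusted p = 0.017, limma). EGLN2, another HIF prolyl hydroxylase, stood at 9.74, 9.81 and 9.73 on the mir-22 mimic arrays, against 10.15, 10.21 and 10.34 on the control mimic arrays, a log2 fold change of -0.47 ± 0.10 (adjusted p = 0.0293). The groups were well apart for both hydroxylase genes, and the other EGLN2 probe was at -0.26 and did not pass.

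CITED2, which competes with HIF for its coactivators, rose, at 9.76, 9.63 and 9.67 on the mir-22 mimic arrays, against 9.23, 9.05 and 8.66 on the control mimic arrays (log2 0.70 ± 0.15, adjusted p = 0.0326, limma). Without control mimic replicate 3 the value for CITED2 was 0.54 (adjusted p = 0.00754, limma). EPAS1, the other main oxygen-labile HIF subunit, rose as well, at 6.56, 6.76 and 6.66 on the mir-22 mimic arrays, against 6.19, 6.24 and 6.28 on the control mimic arrays (log2 0.42 ± 0.10, adjusted p = 0.043). The coactivator gene CREBBP, named after its value was seen, fell by 0.43 on the log2 scale (adjusted p = 0.0484, limma). Its other probe was at -0.14 and did not pass (adjusted p = 0.422). Neither VHL (0.10) nor the coactivator EP300 (-0.11), also named after their values were seen, passed.

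These calls rested on every array of the mimic group. All 5 were lost without any 1 of the mir-22 mimic arrays and without control mimic replicate 2, where HIF1AN ran from -0.67 to -0.70 (adjusted p 0.0529 to 0.0981) and CITED2 from 0.67 to 0.74 (0.0794 to 0.143). EGLN2, EPAS1 and CREBBP were also lost without control mimic replicate 1, at -0.52, 0.40 and -0.43. Of all genes 0.805%, 0.821% and 1.17% passed in either direction without mir-22 mimic replicates 1, 2 and 3. Without control mimic replicate 1 or 2 the share was 3.84% or 2.63%, against 7.61% with all arrays. With the arrays scaled to a common median none of the 5 passed, with HIF1AN at -0.54 (adjusted p = 0.0559), EGLN2 at -0.35 (0.179) and CREBBP at -0.28 (0.268). That scaling moves the median of all genes up by 0.11, and 3.97% of all genes then passed in either direction. EPAS1 was at 0.55 (0.0633) and CITED2 at 0.84 (0.0826) under that scaling. CITED2 also missed with no detection filter (adjusted p = 0.0794), EPAS1 with a trended, robust spread (adjusted p = 0.0532), and EGLN2 (-0.37) and CREBBP (-0.29) with a gene's probes averaged.

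Of 32 other measured hypoxia-induced genes, 9 rose and none fell, with a median log2 fold change of 0.32, where 3.47% of all genes rose and 4.14% fell. The count was 2 without any 1 of the mir-22 mimic arrays, 6 without control mimic replicate 1, 3 without replicate 2 and 15 without replicate 3, and 5 with median scaling. The shares of all genes passing as higher were 0.458% to 0.573%, 1.71%, 1.31%, 8.61% and 2.89% in that order. ERO1A, the oxidase that drives disulfide formation in the endoplasmic reticulum, had log2 intensities of 9.30, 9.35 and 9.36 on the mir-22 mimic arrays, against 8.36, 8.25 and 8.54 on the control mimic arrays (log2 0.95 ± 0.11, or 1.94-fold, adjusted p = 0.00416, limma). PLOD2, a collagen lysyl hydroxylase, stood at 13.51, 13.49 and 13.63 on the mir-22 mimic arrays, against 12.79, 12.66 and 12.71 on the control mimic arrays (0.82 ± 0.10, adjusted p = 0.00467). Its other probes rose by 1.17 and 1.60. On the last of these, control mimic replicate 3 differed from the mean of the other controls by -1.41. Set against control mimic replicates 1 and 2 alone, the mimic mean of that probe stood at 1.13. By their brightest probes, ERO1A and PLOD2 passed whichever array was left out.

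AK4, a mitochondrial adenylate kinase, was at 10.41, 10.44 and 10.34 on the mir-22 mimic arrays, against 9.74, 9.81 and 9.34 on the control mimic arrays (log2 0.77 ± 0.14, adjusted p = 0.018, limma). Its other 3 probes were at 1.49, 1.03 and 0.95, the last without passing. On that last probe control mimic replicate 3 differed from the mean of the other controls by -0.89. Against control mimic replicates 1 and 2 alone, its mimic mean stood at 0.66. TMEM45A, a membrane protein gene, was at 7.06, 7.00 and 6.98 on the mir-22 mimic arrays, against 6.47, 6.45 and 6.48 on the control mimic arrays (0.54 ± 0.09, adjusted p = 0.0137). Both lost their call without any 1 of the mir-22 mimic arrays, where AK4 ran from 0.75 to 0.80 (adjusted p 0.0752 to 0.104) and TMEM45A from 0.52 to 0.57 (0.0645 to 0.0919), TMEM45A also without control mimic replicate 2 (0.53, 0.0599), and AK4 with median scaling (0.91, 0.0571). The other TMEM45A probe was at 0.84 ± 0.30, higher on every mimic array without passing (adjusted p = 0.141). On it control mimic replicate 3 differed from the mean of the other controls by -1.21. Against control mimic replicates 1 and 2 alone, its mimic mean stood at 0.44.

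**Figure D5:**
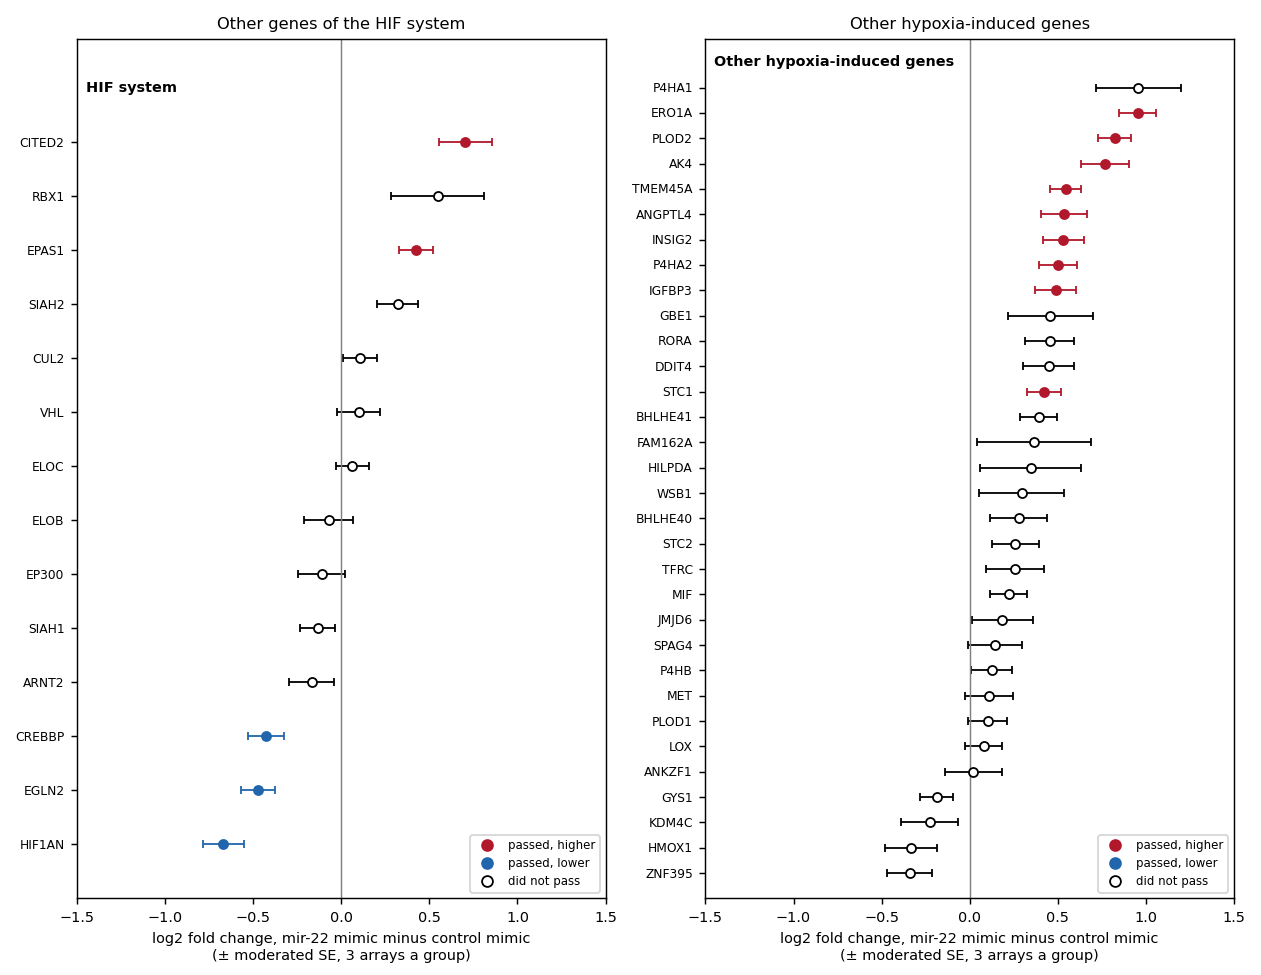
Log2 fold change (x axis, mir-22 mimic minus control mimic, moderated SE, 3 arrays a group) of 14 other genes of the HIF system and 32 other hypoxia-induced genes, filled where they passed. HIF1AN (-0.67), EGLN2 (-0.47) and CREBBP (-0.43) are filled on the left, and 9 hypoxia-induced genes including ERO1A (0.95) are filled on the right.

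Of 26 other genes of glucose metabolism 1 rose and none fell, with a median of 0.09, where 3.47% of all genes rose and 4.14% fell. It was PYGB, a glycogen phosphorylase, at 9.55, 9.56 and 9.78 on the mir-22 mimic arrays, against 8.92, 9.04 and 9.16 on the control mimic arrays (log2 0.59 ± 0.11, adjusted p = 0.0241, limma). The groups did not overlap, and the call was lost when any of the other 5 arrays than control mimic replicate 3 was left out, with values of 0.51 to 0.63 and an adjusted p of 0.0692 to 0.102. Over the 3 lists together, which share some genes and hold 70 different measured genes that are not members, 12 rose and 3 fell. Leaving out any 1 of the mir-22 mimic arrays gave 2 and 0, where 0.458% to 0.573% of all genes rose and 0.347% to 0.6% fell. Leaving out control mimic replicate 1 gave 7 and 1, where 1.71% of all genes rose and 2.12% fell. Without replicate 2 it was 3 and 0 (1.31% and 1.33% of all genes), and without replicate 3 it was 18 and 4 (8.61% and 7.61%).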

How the data were processed

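RNA from ES-2 cells was measured on 6 Illumina 1-colour arrays, 3 per group. Per the file headers, the authors deposited for each array the mean intensity of a probe's beads, the bead SD and a detection score. Detection p was taken as 1 minus the deposited detection score. BeadStudio is named in the submitters' processing notes, without a version. A table of intensities deposited by the authors, with its normalization unstated, served to name probes by matching values over the 6 arrays (48803 of 48803 matched). Put on the log2 scale here, it also served as an alternative.

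Intensities were background-corrected, quantile-normalised and put on the log2 scale (limma 3.58.1 neqc in R 4.3.3, offset 16). Probes with detection p under 0.01 on at least 3 arrays were kept, 18732 in all. They were fitted with lmFit and eBayes on both groups, and p-values were adjusted by Benjamini-Hochberg over all of them. The fit was tested on simulated data with noise drawn independently for each probe and array. That test did not cover an array that stands apart, as control mimic replicate 3 does. The number of arrays limits the precision, with a median SE of 0.12 on the log2 scale.

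The labels give both groups the same replicate numbers. Deviations of same-numbered arrays from their group means correlated at 0.33, 0.14 and 0.43, and some differently numbered arrays as much (mimic 1 with control 2 at 0.32, mimic 2 with control 1 at 0.18). The number was also tried as a block. Genes named are all measured members, and up to 4 genes with the lowest adjusted p that passed in each list of other pathway genes. CREBBP, VHL, EP300, ACTA2, P4HA1 and IGFBP3 were named outside this rule, after their values were seen. The members and the lists were chosen with earlier results of these data known. Alternatives were each array left out, no background correction, median scaling, the deposited values, both other detection filters, a trended robust spread, array weights and averaging a gene's probes.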

Additional observations from a re-analysis of the deposited data

How the results depend on the processing

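The number of members that rose was 5 with the replicate block, 12 with array weights (1 member, PFKM, then fell), 4 with no background correction, median scaling, the deposited values or probes averaged, and 1 to 9 with an array left out. With the replicate block 12 other pathway genes rose and 3 fell, the same counts as without it but with P4HA1 in place of IGFBP3, and the block changed no further member's call beyond BNIP3 and PFKFB4. Of the other pathway genes, 6 rose with median scaling, 24 with array weights and 2 to 18 with an array left out. Of all genes 2.89% rose with median scaling, 12.7% with array weights and 0.458% to 8.61% with an array left out. The share was 4.69% with the replicate block, 3.96% with no background correction or the deposited values, and 4.5% with probes averaged. Other pathway genes that fell numbered 0 with median scaling, 6 with array weights, 1 with the mean over probes and 0 to 4 with an array left out. Of all genes 1.08% fell with median scaling, 13.6% with array weights and 5.09% with the mean over probes. With an array left out the share was 0.347% to 7.61%, and with the replicate block 5.2%. Median scaling put the members' median at 0.29 and that of all genes at 0.10, and 72.9% of called genes were then higher, against 45.6%.

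Some log2 fold changes near 0 changed sign. With median scaling EGLN1 was 0.0406, ENO1 0.16, GAPDH 0.15, HK1 0.0636, PFKFB3 0.0822 and PKM 0.0623. With array weights ENO1 was 0.0516, GAPDH 0.0669, HIF1A -0.0337 and PFKFB3 0.072. GAPDH was 0.0374 with the mean over probes, and GPI was -0.00266 in the deposited values. With an array left out EGLN1 ran from -0.14 to 0.0084, ENO1 from -0.0517 to 0.0489, GAPDH from -0.0844 to 0.0866, GPI from -0.0337 to 0.0532, HIF1A from -0.19 to 0.41, PFKFB3 from -0.11 to 0.0659, PGK1 from -0.0014 to 0.0712 and PKM from -0.15 to 0.00236. The cause of these changes was not tested. The probe of ADM is dim, and its log2 fold change was 0.94 with background correction and 0.59 without.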
